A study of Mus musculus with 6 samples.

Results

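Transcripts of the proteasome were followed in erythroblasts of mouse fetal liver, nucleated cells that mature into red blood cells. The genes were taken by symbol from the count table, as names that begin with Psma to Psmg followed by a number, without pseudogenes and with at least 10 counts in at least 3 libraries. This gave 50 of the 17691 genes in the table, and all 50 were also among the 12283 genes tested. The treated cells were TER119-negative erythroblasts of C57BL/6J mice given carbon dots (CDs) at 1 ug/ml over 30 h, nanometre-sized carbon particles made from the plant Codonopsis pilosula (libraries CDs 1 to 3), and the comparison was with cells of the same kind left untreated (untreated 1 to 3). Both groups were grown in medium with erythropoietin (Epo), the hormone that drives red cell production, and the labels name no other agent and no altered gene. Selection rested on the absence of TER119, an antigen that appears on the surface as erythroid cells mature. The age of the fetuses and any pooling are not given in the sources used here. Total expected counts were 17695997, 19992001 and 19899304 in CDs 1 to 3, and 19920652, 19896958 and 20066581 in untreated 1 to 3. Nothing in the labels says that libraries of a group came from separate animals or cultures, and the p-values therefore cover only the spread among these libraries, which may be technical.

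The proteasome is the protease that degrades proteins tagged with ubiquitin. Its barrel-shaped core is built of alpha rings, which gate the entrance, and beta rings, which hold the catalytic sites, and the regulatory particle on its ends binds ubiquitin chains, removes them and unfolds the protein with a ring of ATPases. In cells of the immune system, and in others after interferon, the catalytic subunits Psmb5, Psmb6 and Psmb7 are replaced by Psmb8, Psmb9 and Psmb10, which form the immunoproteasome and favour peptides for display on MHC class I. Maturing red cell precursors rely on ubiquitin and the proteasome to clear proteins that the mature cell does not keep.

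By structure, 14 of the 50 genes encode the constitutive core (7 alpha and 7 beta subunits), 3 the immunoproteasome and 17 the regulatory particle (6 ATPases, 3 other base subunits and 8 lid subunits). The rest are 3 assembly chaperones of the regulatory particle, 4 of the core, 5 activators, the core-binding protein PI31 (Psmf1), and the tissue-specific subunits Psma8 and Psmb11. Psmc3ip matched by name alone and encodes a meiotic recombination factor, not a subunit, which leaves 49 proteasome genes. Adrm1 and Sem1, a base and a lid subunit with other names, fell outside the symbol rule and were counted among the partners. Together the 50 genes took 0.719%, 0.691% and 0.579% of the counts in CDs 1 to 3, against 0.770%, 0.733% and 0.636% in untreated 1 to 3. Within each number the CDs library was the lower, while untreated 3 lay below CDs 1 and CDs 2, so the groups overlapped. In bulk RNA, fewer cells of a type and less RNA per cell cannot be told apart.

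The libraries carried erythroid transcripts at high level, in keeping with their label. The 9 erythroid markers (Hbb-bt, Hbb-bs, Hba-a1, Gata1, Klf1, Epor, Tfrc, Slc4a1 and Alas2) summed to between 87870 and 112200 CPM (counts scaled to a common library total after TMM normalisation) in CDs libraries, against 94330 to 110800 CPM in untreated libraries. Globin transcripts made up most of these sums. Of the 9 markers, all but Alas2, 8 in number, were lowest in number 3 of both groups, against 40.8% of all genes tested. Klf1 fell furthest among them in untreated libraries, with 694, 590 and 285 CPM in CDs 1 to 3, against 735, 689 and 388 CPM in untreated 1 to 3. The library numbered 3 stood apart in each group, and the 16 macrophage markers summed to 371, 1518 and 4900 CPM in CDs 1 to 3, against 162, 474 and 3916 CPM in untreated 1 to 3. Libraries with the same number deviated together from their group means, with correlations across genes of 0.91, 0.34 and 0.94 for numbers 1 to 3. The numbers were therefore taken as pairs, and fits with the replicate number as a block are given where they alter a call. Libraries with different numbers were not correlated across the groups, so this check cannot show that the same-numbered match is the best one. Counts over pairs and blocked fits rest on that match.

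With CDs, most transcripts of the constitutive core and of the regulatory particle measured slightly below their numbered untreated partners, while Psmb8 and Psmb9 of the immunoproteasome measured above theirs, and none of these differences passed the test without the block. Of the 31 genes of the core and the regulatory particle, 30 were lower in the CDs library of all 3 pairs, against 26.2% of all genes tested. The exception was Psmd1, a scaffold subunit of the base, whose difference in log2(CPM + 0.5) was 0.03 in pair 1, -0.15 in pair 2 and -0.14 in pair 3. The median log2 fold change of the 31 genes was -0.15 (range -0.22 to -0.05), that of the 3 immunoproteasome genes was 0.26, and that of all genes tested was 0.01. Over all 50 genes the median was -0.14 and 45 were below 0, as were 48.1% of all genes tested. The median of the 31 genes was -0.04 without CDs 3, -0.07 without untreated 1 and -0.27 without untreated 3, in fits where the numbered partner stayed in. Without CDs 1 it was -0.25, and without both libraries numbered 3 it was -0.16.

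Most of these differences were smaller than the SD between libraries of a group. Among the exceptions was Psmd8, at 189 ± 3.21 CPM with CDs and 207 ± 8.14 CPM untreated (mean and SD). No proteasome gene passed adjustment in the test without the block. The edgeR quasi-likelihood test with Benjamini-Hochberg adjustment called 0 of the 50 genes at an adjusted p under 0.05, as it called 0.0% of all genes (smallest adjusted p = 0.994). At an unadjusted p under 0.05 it held 0 of the 50, against 1.03% of all genes. DESeq2 without the block also called 0 of the 50 (0.114% of all genes), as did limma-voom (0.0%). With the block, edgeR called 0 of the 50 at an adjusted p under 0.05 (0.0407% of all genes) and 2 at an adjusted p under 0.10 (8.3% of all genes), and limma-voom called 0 (0.057% of all genes). DESeq2 with the block called 2 genes lower (2.09% of all genes) and 0 higher (7.76% of all genes), and these were Psmd9 and Psmf1, which were also the 2 that the blocked edgeR fit held at 0.10. At an unadjusted p under 0.05 in the blocked edgeR fit, 23 of the 50 were lower, among them 8 core and 10 regulatory particle genes, against 11.9% of all genes, and 0 were higher, against 18.0%.

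The alpha subunits form the outer rings of the core, and all 7 of the constitutive ones were lower in all 3 pairs, with log2 fold changes from -0.17 to -0.07. Psma2 had the lowest, with 168, 176 and 127 CPM in CDs 1 to 3, against 198, 187 and 146 CPM in untreated 1 to 3. The CDs library was below its partner each time, but CDs 1 and CDs 2 were above untreated 3, so the groups overlapped (log2 fold change -0.17 ± 0.19 SE, edgeR adjusted p = 0.994). Psma8, the alpha subunit of male germ cells, was barely present, with 1.03, 1.01 and 1.16 CPM in CDs 1 to 3, against 1.19, 0.563 and 1.17 CPM in untreated 1 to 3.

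The 7 constitutive beta subunits were likewise lower in all 3 pairs, with log2 fold changes from -0.19 to -0.13. Psmb3, a beta subunit without a catalytic site, had the lowest, with 148, 152 and 108 CPM in CDs 1 to 3, against 174, 168 and 124 CPM in untreated 1 to 3. Psmb5, which carries the chymotrypsin-like site, measured 117, 101 and 77.9 CPM in CDs 1 to 3, against 122, 110 and 91.5 CPM in untreated 1 to 3 (log2 fold change -0.13 ± 0.20 SE). Psmb7, with the trypsin-like site, measured 201, 203 and 149 CPM in CDs 1 to 3, against 234, 228 and 164 CPM in untreated 1 to 3 (log2 fold change -0.18 ± 0.21 SE). In each of these the number 3 libraries were the lowest of both groups. Psmb6, with the caspase-like site, was the only core gene that broke this pattern, with 113, 127 and 115 CPM in CDs 1 to 3, against 133, 131 and 127 CPM in untreated 1 to 3 (log2 fold change -0.14 ± 0.10 SE). Its groups met at about 127 CPM. Psmb11, the catalytic subunit of the thymus cortex, was also barely present, at 1.89, 1.41 and 2.07 CPM in CDs 1 to 3, against 1.81, 1.94 and 2.0 CPM in untreated 1 to 3.

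Among the ATPases of the regulatory particle, which unfold the substrate, all 6 were lower in all 3 pairs, with log2 fold changes from -0.19 to -0.11. Psmc2 had the lowest, with 237, 226 and 165 CPM in CDs 1 to 3, against 277, 247 and 192 CPM in untreated 1 to 3. Psmc6 had the highest, with 194, 170 and 124 CPM in CDs 1 to 3, against 206, 189 and 133 CPM in untreated 1 to 3. Both showed the same order of libraries, number 1 highest and number 3 lowest in each group. The other base subunits, the scaffolds Psmd1 and Psmd2 and the ubiquitin receptor Psmd4, had log2 fold changes of -0.07, -0.05 and -0.18.

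Of the lid, the symbol rule took the deubiquitinase Psmd14, which strips ubiquitin from the substrate, and 7 further subunits. All 8 were lower in all 3 pairs, with log2 fold changes from -0.22 to -0.06. The lid subunit Sem1, outside the rule, differed in log2(CPM + 0.5) by -0.22, 0.05 and -0.12 in pairs 1 to 3. It was highest in number 3 of both groups. Psmd7, the partner of Psmd14, had the lowest fold change of the whole regulatory particle, with 193, 168 and 101 CPM in CDs 1 to 3, against 212, 202 and 123 CPM in untreated 1 to 3 (log2 fold change -0.22 ± 0.33 SE, blocked edgeR -0.23 ± 0.06 SE, blocked adjusted p = 0.104, range over the alternatives 0.0748 to 1). Psmd12 had the highest of the lid, with 151, 135 and 93.1 CPM in CDs 1 to 3, against 152, 142 and 101 CPM in untreated 1 to 3. Psmd8 (Entrez 57296, chromosome 7, 29174187 to 29180673) was the only subunit of either particle whose groups did not overlap, with 188, 193 and 187 CPM in CDs 1 to 3, against 206, 200 and 216 CPM in untreated 1 to 3. Its difference was small and did not pass (log2 fold change -0.13 ± 0.10 SE, edgeR adjusted p = 0.994, blocked edgeR adjusted p = 0.213, range over the alternatives 0.204 to 1). Over all 50 genes, 3 had groups that did not overlap with CDs lower, against 2.33% of all genes tested, and 0 with CDs higher, against 2.37%.

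The other genes without overlap were Psmf1 and Psmd9, the 2 that DESeq2 called with the block. Psmf1 (Entrez 228769, chromosome 2, 151716062 to 151744199) encodes PI31, a protein that binds the core and was first described as its inhibitor. It measured 121, 120 and 97.6 CPM in CDs 1 to 3, against 144, 146 and 123 CPM in untreated 1 to 3. The highest CDs library lay just under the lowest untreated library (log2 fold change -0.29 ± 0.14 SE, n = 3 each, lower in 3 of 3 pairs). Its adjusted p was 0.0236 in DESeq2 with the block and 0.0916 in edgeR with the block, over a range of 0.0236 to 1 across the alternatives. Psmd9 (Entrez 67151, chromosome 5, 123228190 to 123250126) is an assembly chaperone of the ATPase ring. It measured 52.6, 53.3 and 38.6 CPM in CDs 1 to 3, against 61.9, 66.3 and 53.5 CPM in untreated 1 to 3, again with the groups just apart (log2 fold change -0.33 ± 0.17 SE, n = 3 each, lower in 3 of 3 pairs). DESeq2 with the block gave it an adjusted p of 0.0407 and edgeR with the block one of 0.0916, over a range of 0.0407 to 1 across the alternatives. Without CDs 3 the log2 fold change in edgeR was -0.19 for each of the 2 genes. Both genes had estimated counts that were not whole, which arise where reads match more than 1 place, so their levels are less certain than those of the 41 members with whole counts. The other members with such counts were Psma3, Psma4, Psmd11, Psmb11, Psme2, Psme2b and Psmc3ip.

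The other assembly chaperones of the regulatory particle, Psmd5 and Psmd10 (gankyrin), had log2 fold changes of -0.14 and -0.11. The 4 assembly chaperones of the core were lower in all 3 pairs. Psmg2, which pairs with Psmg1 to build the alpha ring, measured 29.1, 29.7 and 17.2 CPM in CDs 1 to 3, against 37.6, 36.3 and 19 CPM in untreated 1 to 3 (log2 fold change -0.29 ± 0.35 SE, blocked edgeR -0.27 ± 0.08 SE, blocked adjusted p = 0.114, range 0.0868 to 1). Its log2 fold change was -0.07 without CDs 3, -0.13 without untreated 1, -0.16 without untreated 2, -0.55 without untreated 3 and -0.44 without CDs 2. Its CDs libraries 1 and 2 lay between untreated 3 and the other untreated libraries. Psmg1, Psmg3 and Psmg4 had log2 fold changes of -0.13, -0.15 and -0.11 at means of 13.1, 10.8 and 9.10 CPM in CDs libraries, against 14.3, 12 and 9.79 CPM in untreated libraries. Psmc3ip, the gene matched by name alone, measured 14.9, 14.6 and 6.37 CPM in CDs 1 to 3, against 18.2, 18.1 and 9.72 CPM in untreated 1 to 3 (log2 fold change -0.36 ± 0.43 SE, blocked adjusted p = 0.107, range 0.0730 to 1).

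The immunoproteasome genes varied more between replicate numbers than any other class of the complex. Psmb8 (Entrez 16913, chromosome 17, 34198195 to 34201454), the replacement for Psmb5, measured 7.90, 31.3 and 94.5 CPM in CDs 1 to 3, against 2.89, 8.08 and 90.6 CPM in untreated 1 to 3. The CDs library was higher in every pair, by 2.73-fold, 3.87-fold and 1.04-fold in numbers 1 to 3, but both number 3 libraries exceeded all others. Psmb9 (Entrez 16912, chromosome 17, 34182030 to 34187330), the replacement for Psmb6, measured 2.92, 14.7 and 55.7 CPM in CDs 1 to 3, against 1.86, 5.17 and 54.2 CPM in untreated 1 to 3. It followed the same order, with folds of 1.57, 2.84 and 1.03 within numbers 1 to 3. For Psmb8 and Psmb9, CDs 1 lay below untreated 2, so a higher level in every pair depends on the numbering. Psmb10 (Entrez 19171, chromosome 8, 105935728 to 105938392), the replacement for Psmb7, measured 17.6, 33.3 and 70.5 CPM in CDs 1 to 3, against 18.9, 22.1 and 70.7 CPM in untreated 1 to 3. For this gene the CDs library was above its partner in number 2 alone.

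No immunoproteasome gene passed a test. The log2 fold changes were 0.40 ± 1.46 for Psmb8, 0.26 ± 1.52 for Psmb9 and 0.12 ± 0.73 for Psmb10 (SE, edgeR adjusted p = 0.994 for each). With the replicate block they were 1.02 ± 0.43, 0.66 ± 0.33 and 0.16 ± 0.15 (SE, blocked edgeR adjusted p = 0.209, 0.267 and 0.512), and over the alternatives the lowest adjusted p was 0.0955, 0.124 and 0.458 and the highest 1. Psmb8 and Psmb9 were the only members higher in all 3 pairs, 2 of 50 against 30.2% of all genes tested. The median of the 3 genes was -0.79 without CDs 3, 2.79 without untreated 3 and 1.31 without both libraries numbered 3. It was -0.20 without untreated 1 and -0.15 without untreated 2, so its sign depended on single libraries.

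The RNA of each immunoproteasome catalytic gene was set against that of its constitutive counterpart as the ratio of their FPKM (counts scaled by gene length and library total). Such a ratio in bulk RNA does not show which subunit proteins the particles held, and no protein level was used here. Psmb8 stood at 4.74%, 21.8% and 85.3% of Psmb5 in CDs 1 to 3, against 1.67%, 5.18% and 69.7% in untreated 1 to 3. Psmb9 reached 3.37%, 14.5% and 61.5% of Psmb6 in CDs 1 to 3, against 1.71%, 4.94% and 53.8% in untreated 1 to 3. Psmb10 came to 6.05%, 11.8% and 35.3% of Psmb7 in CDs 1 to 3, against 5.86%, 7.15% and 32.1% in untreated 1 to 3. Each ratio was higher in the CDs library of 3 of 3 pairs, and each was a small share in number 1 and a large one in number 3 of both groups. The constitutive genes, lower with CDs in each pair, also raised the ratios. By CPM, Psmb10 was 0.929-fold and 0.998-fold its partner in pairs 1 and 3, where Psmb7 was 0.857-fold and 0.907-fold. In pair 3 Psmb8 and Psmb9 were 1.04-fold and 1.03-fold, where Psmb5 and Psmb6 were 0.852-fold and 0.909-fold. Between the groups the mean log2 ratios differed by 1.29, 0.91 and 0.30 for Psmb8, Psmb9 and Psmb10, less than the SD within the groups of 2.09, 2.09 and 1.28 with CDs and 2.76, 2.55 and 1.34 untreated. Within pairs 1 to 3 the log2 ratio with CDs minus that untreated was 1.5, 2.07 and 0.29 for Psmb8, 0.98, 1.56 and 0.19 for Psmb9, and 0.05, 0.73 and 0.13 for Psmb10. An exact two-sided test over the pairs, chosen after seeing the data, gave p = 0.25 for each, the smallest that 3 pairs allow. Over the groups, the exact two-sided permutation test gave p = 0.6, 0.7 and 0.7 (0.7 each after Benjamini-Hochberg adjustment over the 3 ratios), where 3 against 3 libraries can give no p below 0.1. Leaving out CDs 3 turned the difference for Psmb9 to -0.14 and for Psmb10 to -0.38, and leaving out untreated 1 turned them to -0.18 and -0.15. Without untreated 3 the 3 differences were 2.81, 2.31 and 1.07, and without CDs 1 they were 2.35, 1.96 and 0.89. Leaving out untreated 2 gave -0.01 for Psmb10 and 0.59 for Psmb9, and for Psmb8 the difference fell to 0.27 without CDs 3 and 0.12 without untreated 1.

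**Figure D1:**
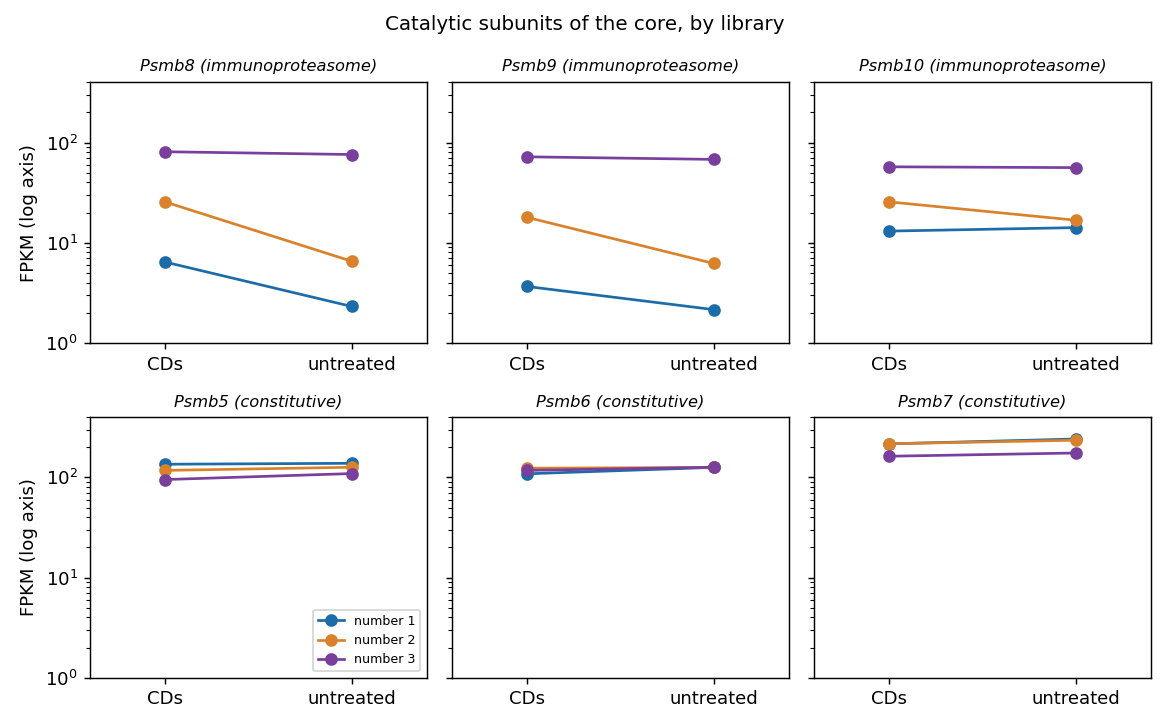
FPKM (log axis) of the 3 immunoproteasome subunits, upper row, and of the constitutive subunit that each replaces, lower row, in CDs and untreated libraries, with lines joining libraries of the same number. Psmb8 runs from 2.31 to 81.1 FPKM over the 6 libraries with number 3 highest in both groups, while the constitutive subunits lie above it in all 6 libraries.

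The promoters of these genes are shown because Psmb8 and Psmb9 had a pattern over the libraries unlike that of Psmb5, and because Psmd9 was among the 2 genes called. Psmf1, the other gene called, is not shown, so the motifs of Psmd9 do not stand for the genes called. Windows of 250 bases before to 50 after the start site were taken from RefSeq on GRCm38.p6 and were used for 42 of the 50 genes. They were searched on both strands for TGACNNNGC, the core of the antioxidant response element bound by Nfe2l1 and its relatives, TGAGTCA, the core of the NF-E2 site, GAAANNGAAA, a core of interferon response elements, TTCNNNGAA, bound by STAT proteins, and CCAAT. An NF-E2 core on the other strand can lie inside an antioxidant response core, and no other motif can lie inside another. Matches are in capitals in the sequences, which are written 5′ to 3′ on the strand of the gene.
Psmb8 (chr17:34197945-34198244, plus strand): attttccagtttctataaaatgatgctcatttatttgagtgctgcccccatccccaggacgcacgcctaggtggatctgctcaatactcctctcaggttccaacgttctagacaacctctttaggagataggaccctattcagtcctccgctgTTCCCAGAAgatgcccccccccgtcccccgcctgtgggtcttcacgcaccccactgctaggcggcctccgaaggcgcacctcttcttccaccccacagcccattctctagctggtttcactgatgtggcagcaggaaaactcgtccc
Psmb9 (chr17:34187281-34187580, minus strand): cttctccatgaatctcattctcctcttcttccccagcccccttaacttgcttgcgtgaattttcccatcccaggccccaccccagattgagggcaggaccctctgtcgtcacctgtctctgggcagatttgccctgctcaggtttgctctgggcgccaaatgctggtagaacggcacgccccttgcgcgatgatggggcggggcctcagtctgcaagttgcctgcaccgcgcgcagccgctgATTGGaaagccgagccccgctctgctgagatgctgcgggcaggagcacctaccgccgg
Psmb5 (chr14:54617946-54618245, minus strand): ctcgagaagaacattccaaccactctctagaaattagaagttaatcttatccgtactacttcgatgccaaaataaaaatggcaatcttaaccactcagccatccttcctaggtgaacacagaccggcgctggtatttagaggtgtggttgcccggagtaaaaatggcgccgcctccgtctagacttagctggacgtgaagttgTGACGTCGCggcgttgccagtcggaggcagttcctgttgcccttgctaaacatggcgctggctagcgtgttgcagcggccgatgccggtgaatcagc
Psme1 (chr14:55578244-55578543, plus strand): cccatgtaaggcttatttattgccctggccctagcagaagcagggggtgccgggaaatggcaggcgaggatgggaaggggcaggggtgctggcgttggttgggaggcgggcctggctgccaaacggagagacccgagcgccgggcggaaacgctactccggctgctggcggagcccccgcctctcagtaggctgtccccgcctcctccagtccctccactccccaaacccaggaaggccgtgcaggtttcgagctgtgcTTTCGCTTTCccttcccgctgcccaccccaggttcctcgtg
Psmd9 (chr5:123227940-123228239, plus strand): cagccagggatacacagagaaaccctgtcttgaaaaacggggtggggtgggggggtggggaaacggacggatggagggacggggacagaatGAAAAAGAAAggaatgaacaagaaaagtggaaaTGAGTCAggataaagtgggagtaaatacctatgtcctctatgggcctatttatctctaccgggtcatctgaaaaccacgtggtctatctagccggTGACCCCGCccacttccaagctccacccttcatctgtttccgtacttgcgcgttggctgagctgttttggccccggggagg

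The windows held different motifs, with positions counted from the start site as 1. Psmb8 had a STAT core at -97, and Psmb9 a CCAAT box on the opposite strand at -8. The Psmb9 window shares 275 of its 300 bases with that of Tap1, the peptide transporter gene read in the opposite direction, whose start site lies 226 bases away. Psmb5 had an antioxidant response core at -47, and Psme1 an interferon response core at 10, just inside the transcript. Psmd9 held 3 of the motifs, an antioxidant response core at -31, the NF-E2 core at -126 and an interferon response core at -159.

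The shares of windows with a match can be set beside those of promoters at large, with limits. For each member only 1 window, the first listed, was used, while the comparison took every window. Members on chromosome 18 were left out, while no chromosome was left out of the comparison. The antioxidant response core was found in 4 of 25 windows of the core and regulatory particle (16%) and in 12.4% of all 32851 windows. CCAAT was in 15 of 42 windows (35.7%) and 37.4% of all windows, the STAT core in 3 of 42 (7.14%) and 8.3% of all, and the NF-E2 core in 1 of 42 (2.38%) and 5.2% of all. The interferon response core was in 5 of 42 windows (11.9%), those of Psme1, Psmd9, Psmd4, Psmb3 and Psmg4, against 3.44% of all windows. It was in 0 of the 3 immunoproteasome windows. A match is a description of the letters and no evidence of binding.

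The activators cap the core in place of the regulatory particle. Psme1 and Psme2 encode the subunits of PA28, which interferon induces together with the immunoproteasome. Psme1 measured 75.1, 108 and 153 CPM in CDs 1 to 3, against 88.5, 94.8 and 172 CPM in untreated 1 to 3 (log2 fold change -0.08 ± 0.38 SE). Psme2 measured 55.6, 73.4 and 112 CPM in CDs 1 to 3, against 60.4, 63.6 and 125 CPM in untreated 1 to 3 (log2 fold change -0.05 ± 0.40 SE). Both had their highest level in number 3 of each group, as the immunoproteasome genes had, but both were lower with CDs in numbers 1 and 3 and higher in number 2. Psme2b, a near copy of Psme2 whose reads cannot be cleanly separated from it, was at 2.23, 3.17 and 12.5 CPM in CDs 1 to 3, against 2.38, 2.92 and 10.7 CPM in untreated 1 to 3.

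The nuclear activator Psme3 (PA28 gamma) and Psme4 (PA200) did not share this order. Psme3 measured 656, 602 and 460 CPM in CDs 1 to 3, against 666, 607 and 504 CPM in untreated 1 to 3 (log2 fold change -0.05 ± 0.20 SE). Psme4 measured 255, 212 and 172 CPM in CDs 1 to 3, against 229, 227 and 187 CPM in untreated 1 to 3 (log2 fold change -0.01 ± 0.19 SE). Both were lowest in number 3 of each group.

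The spread between replicate numbers thus split the complex into a set lowest in the number 3 libraries and a set highest there. In both groups number 3 was the lowest library for 39 of the 50 genes, 29 of them among the 31 of the core and regulatory particle, against 40.8% of all genes tested. It was the highest in both groups for 7 of the 50, against 41.0% of all genes, namely the 3 immunoproteasome genes, Psme1, Psme2, Psme2b and the barely detected Psmb11. Psmb8 was 12-fold higher in CDs 3 than in CDs 1 and 31.3-fold higher in untreated 3 than in untreated 1. For Psmb9 the same folds were 19.1 with CDs and 29.2 untreated, for Psmb10 4.01 and 3.74, and for Psme1 2.03 and 1.95. Summed over the core and regulatory particle, the level was 5724, 5407 and 4103 CPM in CDs 1 to 3, against 6310, 5890 and 4633 CPM in untreated 1 to 3. The difference between numbers 1 and 3 within a group was thus larger than that between CDs and untreated within a number.

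Most macrophage, granulocyte, endothelial and hepatocyte markers tested were, like the immunoproteasome genes, highest in number 3 of both groups (41.0% of all genes tested). All 13 macrophage markers tested, of 16 in the table, were highest in number 3 of both groups, and their median log2 fold change was 0.76 (1.25 with the block), with 11 of 13 higher in the CDs library of all 3 pairs. DESeq2 with the block called 10 of the 13 higher, against 7.76% of all genes, and 1 lower, against 2.09%. Adgre1, which encodes the macrophage antigen F4/80, measured 32.7, 130 and 488 CPM in CDs 1 to 3, against 9.61, 30.9 and 336 CPM in untreated 1 to 3. The marker called lower was Cd5l, a secreted macrophage protein, with 0.629, 0.956 and 9.89 CPM in CDs 1 to 3, against 1.4, 3.22 and 14.6 CPM in untreated 1 to 3, lower in 3 of 3 pairs and named after its values were seen (log2 fold change -0.74 ± 1.35 SE, DESeq2 with the block adjusted p = 0.0441, blocked edgeR adjusted p = 0.104). Spic was at 0 in CDs 1 and untreated 1, and Timd4 in untreated 2. Cd163, not tested, was lowest in number 3 of both groups. It measured 0.343, 0.302 and 0.289 CPM in CDs 1 to 3, against 0.31, 0.205 and 0.0977 CPM in untreated 1 to 3. Granulocyte markers, 10 of 10 tested, summed to between 383 and 2142 CPM in CDs libraries, against 270 to 2079 CPM in untreated libraries, and 9 of the 10 were highest in number 3 of both groups. Lymphocyte markers summed to at most 6.03 CPM in CDs libraries and 4.45 CPM in untreated libraries, with Ncr1 at 0 in all 6 libraries. Endothelial markers summed to between 14.5 and 83.4 CPM in CDs libraries, against 7.08 to 65.6 CPM in untreated libraries, and hepatocyte markers to between 241 and 450 CPM in CDs libraries, against 165 to 348 CPM in untreated libraries. Megakaryocyte markers summed to 91.8 to 136 CPM in CDs libraries, against 98.0 to 103 CPM in untreated libraries. Higher in all 3 pairs were 5 of 10 granulocyte, 5 of 5 endothelial and 5 of 7 hepatocyte markers tested (30.2% of all genes). The same held for 2 of 7 megakaryocyte and 1 of 3 lymphocyte markers. DESeq2 with the block called 3 granulocyte, 2 endothelial, 2 hepatocyte and 1 megakaryocyte marker higher (7.76% of all genes). It called 0 of these lists lower (2.09% of all genes). The part of these cell types in the levels of proteasome genes was not tested.

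**Figure D2:**
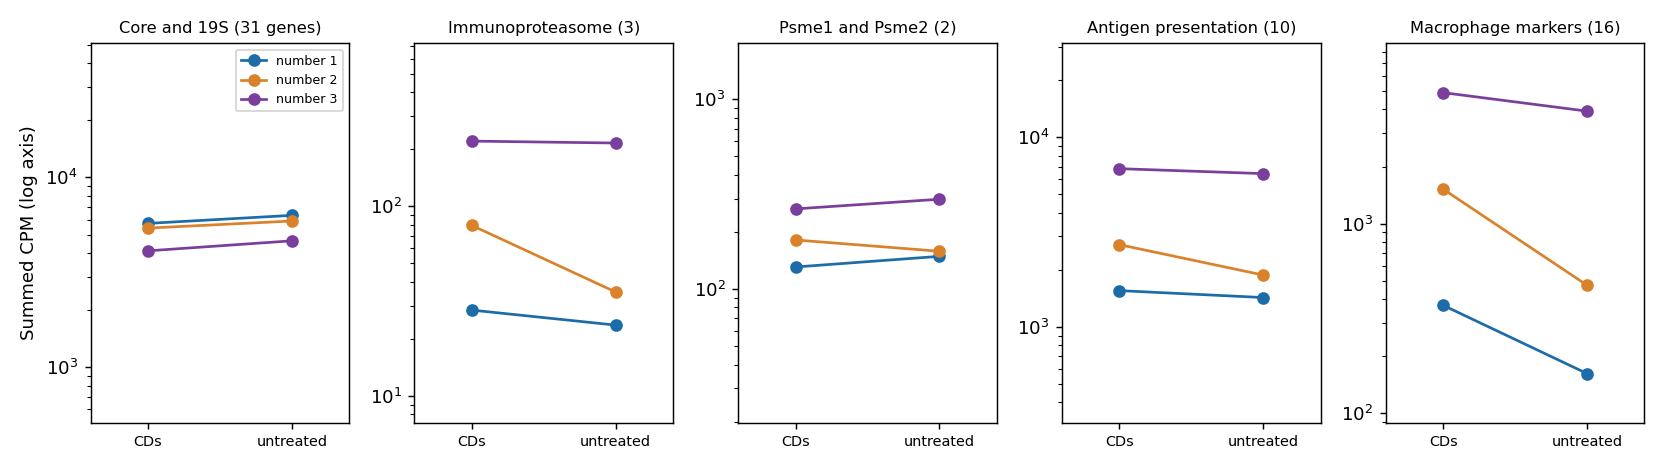
Summed CPM (log axis; each panel spans the same ratio at its own level) of the 31 core and regulatory particle genes, the 3 immunoproteasome genes, Psme1 with Psme2, 10 antigen presentation genes and 16 macrophage markers, in CDs and untreated libraries joined by number. The core and regulatory particle sum is lowest in number 3, and the other sums are highest there; macrophage markers span 162 to 4900 CPM.

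Per length, the subunits of a particle were present at similar levels, and the core exceeded the regulatory particle. The median beta subunit stood at 171 FPKM in CDs libraries and 188 FPKM in untreated libraries, and the median alpha subunit at 115 FPKM with CDs and 127 FPKM untreated. The median gene of the regulatory particle stood at 103 FPKM with CDs and 110 FPKM untreated, with ATPases at 111 and 123 FPKM and lid subunits at 83.2 and 90.5 FPKM. Levels within the core spanned a ratio of 2.29 with CDs and 2.31 untreated, from Psma5 to Psmb7 and Psmb1. Within the regulatory particle they spanned 2.42 with CDs and 2.38 untreated, from Psmd6 to Psmc3. The mean core gene over the mean regulatory particle gene gave ratios of 1.34, 1.45 and 1.58 in CDs 1 to 3, against 1.42, 1.44 and 1.5 in untreated 1 to 3, with no common direction in the pairs. Core chaperones were far less abundant, at a median of 15.6 FPKM with CDs and 16.7 FPKM untreated. Psme3 had the highest mean of the 50 genes, at 218 ± 32.5 FPKM with CDs and 222 ± 25.2 FPKM untreated (SD, n = 3 each).

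**Figure D3:**
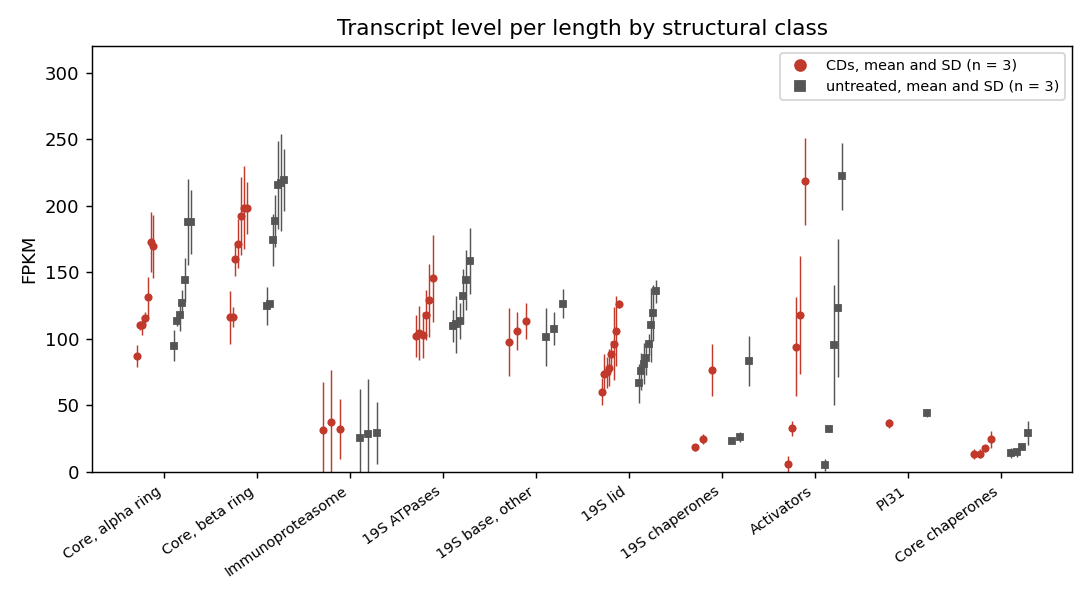
Mean FPKM of each gene by structural class, with CDs libraries left of untreated libraries in each class and bars for the SD (n = 3; bars that would pass below 0 are cut by the axis). Psme3 has the highest mean (218 FPKM with CDs, 222 FPKM untreated); Psma8, Psmb11 and Psmc3ip are left out.

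Genes that act with the proteasome were followed in 5 lists with 58 genes tested, and edgeR with Benjamini-Hochberg adjustment called 0 of them without the block and 0 with it, while DESeq2 with the block called 2 lower and 5 higher. The same fit called 2.09% of all genes lower and 7.76% higher. The partners of the complex had a median log2 fold change of -0.07 over 11 tested genes. In all 3 pairs 4 of the 11 were lower, against 26.2% of all genes tested, and 2 were higher, against 30.2%. Adrm1, a ubiquitin receptor, is itself a base subunit of the regulatory particle that the symbol rule did not take. It measured 192, 175 and 126 CPM in CDs 1 to 3, against 208, 204 and 159 CPM in untreated 1 to 3 (log2 fold change -0.21 ± 0.21 SE), and so resembled the subunits taken by symbol. Fbxo7, an F-box protein that binds PI31, measured 123, 136 and 115 CPM in CDs 1 to 3, against 136, 152 and 137 CPM in untreated 1 to 3 (log2 fold change -0.18 ± 0.12 SE). Its groups were just apart, with 135.5 CPM in CDs 2 and 136.2 CPM in untreated 1. Of the 11 partners, 1 had groups without overlap and CDs lower, against 2.33% of all genes tested, and 0 with CDs higher, against 2.37%. Zfand5, which binds the proteasome and stimulates it, had a log2 fold change of 0.15 ± 0.12 (SE) and was higher in all 3 pairs. None of the 3 had an adjusted p under 0.05 in any alternative.

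Nfe2l1 encodes the transcription factor that induces proteasome subunits when the proteasome is inhibited, and the 8 genes of its control had a median log2 fold change of -0.02. Nfe2l1 itself measured 70.2, 73.4 and 92.0 CPM in CDs 1 to 3, against 62.7, 66.2 and 89.2 CPM in untreated 1 to 3 (log2 fold change 0.11 ± 0.19 SE, blocked edgeR adjusted p = 0.242, range 0.233 to 1). It was slightly higher in each CDs library than in its partner. Sel1l, a subunit of the ubiquitin ligase complex of the endoplasmic reticulum, had a log2 fold change of 0.22 ± 0.24 (SE), and Ddi2, the protease that activates the Nfe2l1 protein, one of 0.13 ± 0.11 (SE).

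Ubiquitin, conjugating enzymes and shuttle factors, 16 genes tested, had a median log2 fold change of -0.04, and DESeq2 with the block called 1 of them lower, against 2.09% of all genes, and 0 higher, against 7.76%. This was Rps27a, which encodes ubiquitin joined to a ribosomal protein. It measured 616, 598 and 368 CPM in CDs 1 to 3, against 746, 695 and 450 CPM in untreated 1 to 3 (log2 fold change -0.26 ± 0.29 SE, lower in 3 of 3 pairs, DESeq2 with the block adjusted p = 0.0161, range over the alternatives 0.0161 to 1). Its groups overlapped, and its counts were not whole throughout. Ube2o, a ubiquitin-conjugating enzyme that tags proteins for removal in reticulocytes, measured 267, 287 and 387 CPM in CDs 1 to 3, against 227, 250 and 340 CPM in untreated 1 to 3 (log2 fold change 0.20 ± 0.23 SE, edgeR adjusted p = 0.994), higher in each CDs library than in its partner but with overlap between the groups. Ubqln2, a shuttle that carries ubiquitylated proteins to the proteasome, measured 45.4, 41.9 and 47.8 CPM in CDs 1 to 3, against 35.9, 34.2 and 38.2 CPM in untreated 1 to 3, without overlap (log2 fold change 0.32 ± 0.11 SE, edgeR adjusted p = 0.994, blocked adjusted p = 0.0916, range 0.0657 to 1). Of the 16 genes, 1 had groups without overlap and CDs higher, against 2.37% of all genes tested, and 0 with CDs lower, against 2.33%.

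The genes of MHC class I antigen presentation, which use the peptides that the proteasome makes, had a median log2 fold change of 0.19 over 10 tested genes, with 7 higher in the CDs library of all 3 pairs (30.2% of all genes tested) and all 10 highest in number 3 of both groups (41.0% of all genes). DESeq2 with the block called 2 of the 10 higher, against 7.76% of all genes, and 0 lower. These were H2-K1, an MHC class I heavy chain, and Nlrc5, an activator of MHC class I genes, both named after their values were seen. H2-K1 measured 86.8, 215 and 900 CPM in CDs 1 to 3, against 63.7, 105 and 789 CPM in untreated 1 to 3 (log2 fold change 0.33 ± 1.27 SE, higher in 3 of 3 pairs, DESeq2 with the block adjusted p = 0.0236, blocked edgeR adjusted p = 0.145), and its counts were not whole throughout. Nlrc5 measured 3.66, 16.3 and 81.2 CPM in CDs 1 to 3, against 1.45, 4.76 and 83.1 CPM in untreated 1 to 3 (log2 fold change 0.18 ± 1.72 SE, higher in pairs 1 and 2, DESeq2 with the block adjusted p = 0.0402, blocked edgeR adjusted p = 0.276). Both were highest in number 3 of each group, and the groups overlapped. Calr, a chaperone of MHC class I assembly, measured 519, 632 and 849 CPM in CDs 1 to 3, against 427, 438 and 778 CPM in untreated 1 to 3 (log2 fold change 0.28 ± 0.32 SE, DESeq2 with the block adjusted p = 0.0784, range 0.0710 to 1). Pdia3, which works with it, and Erap1, the peptidase that trims peptides, had log2 fold changes of 0.24 ± 0.39 and 0.19 ± 0.43 (SE) and were higher in all 3 pairs. Summed, the list measured 1554, 2714 and 6826 CPM in CDs 1 to 3, against 1429, 1877 and 6427 CPM in untreated 1 to 3. Within each group the summed macrophage, granulocyte and endothelial markers also rose from number 1 to number 3.

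Of 13 genes of interferon and NF-kB control, the pathways that induce the immunoproteasome, all 13 were highest in number 3 of both groups, against 41.0% of all genes tested. DESeq2 with the block called 3 higher, against 7.76% of all genes, and 1 lower, against 2.09%. The genes called higher were Ifngr2 and, named after their values were seen, the transcription factor Irf8 and the receptor chain Ifngr1. Ifngr2, a chain of the interferon gamma receptor, measured 24.8, 58.8 and 126 CPM in CDs 1 to 3, against 15.3, 22.5 and 104 CPM in untreated 1 to 3 (log2 fold change 0.57 ± 0.93 SE, higher in 3 of 3 pairs, DESeq2 with the block adjusted p = 0.00908, range over the alternatives 0.00908 to 1). Irf8 measured 7.50, 29.7 and 96.2 CPM in CDs 1 to 3, against 3.82, 8.85 and 84.4 CPM in untreated 1 to 3 (log2 fold change 0.46 ± 1.4 SE, higher in 3 of 3 pairs, DESeq2 with the block adjusted p = 0.0159, blocked edgeR adjusted p = 0.178). Ifngr1 measured 16.2, 48.7 and 140 CPM in CDs 1 to 3, against 9.35, 21.0 and 130 CPM in untreated 1 to 3 (log2 fold change 0.36 ± 1.2 SE, higher in 3 of 3 pairs, DESeq2 with the block adjusted p = 0.0264, blocked edgeR adjusted p = 0.162). Both were highest in number 3 of each group, and the groups overlapped. Stat3, a cytokine-activated transcription factor, had a log2 fold change of 0.30 ± 0.45 (SE) and was higher in all 3 pairs. Nfkb1, the NF-kB subunit made as a precursor that the proteasome processes, was the gene called lower. It measured 0.229, 0.755 and 2.22 CPM in CDs 1 to 3, against 0.723, 2.15 and 6.06 CPM in untreated 1 to 3 (log2 fold change -1.47 ± 1.06 SE, lower in 3 of 3 pairs, DESeq2 with the block adjusted p = 0.0231, range 0.0231 to 1). These levels rest on few counts, and the groups overlapped.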

How the data were processed

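Expected counts and FPKM for 17691 genes in 6 libraries were deposited by the authors. Per the submitters' processing notes, build GRCm38.p6 was used with RSEM 1.2.12, Bowtie2 2.2.5, DESeq2 1.4.5 and HISAT2 2.0.4, whose roles are not stated. Reads were of 50 bases from 1 end, per the labels' protocols, and no step that marks strand is named. In the deposited expected counts 30.1% of values were not whole, and they were rounded for count tests. That the second deposited table is FPKM was worked out from its values. It gave levels per length and served as an alternative.

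Genes passing filterByExpr, with TMM scaling, entered the robust quasi-likelihood test of edgeR 4.0.16 (R 4.3.3), CDs against untreated, with Benjamini-Hochberg adjustment over all 12283 genes. Alternatives were the replicate number as a block, no gene filter, other size factors, DESeq2 1.42.0, limma-voom and limma 3.58.1 on log2(FPKM + 1), and libraries left out. Pair differences use log2(CPM + 0.5). The pairing check correlated the deviations of same-numbered libraries only from their group means (limit 0.1), and the labels do not say what a number marks. Counts within 0.005 of a whole number were called whole, and the scripts were tested on simulated data. Catalytic ratios had an exact permutation test over the groups and, added after seeing the data, one over the pairs.

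Named genes are the catalytic subunits, activators, PI31 and core chaperones; the lowest and highest log2 fold change of each class with more than 3 genes and its smallest blocked p; genes without overlap between groups; genes matched by name only; and up to 3 per pathway list with the smallest blocked p. Adgre1, Cd5l, H2-K1, Nlrc5, Irf8, Ifngr1, Psmd1, Sem1, other subunits and marker genes given by value were named outside this rule, after their values were seen. A few genes of the lists are not reported here. The members and lists were chosen with earlier results of these data known.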

Additional observations from a re-analysis of the deposited data

How the results depend on the processing

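At an adjusted p under 0.05, 0 proteasome genes and 0 other pathway genes were called by edgeR and under all alternatives run except DESeq2 with the replicate block, which called 2 proteasome genes and 7 other pathway genes and gave no adjusted p for Psma8 and Psmb11. With the replicate block in edgeR the median log2 fold change was -0.14 for the 50 members and -0.15 for the 31 core and regulatory particle genes, as without it, and it altered no edgeR call of a member or pathway gene at 0.05. The median of the 50 genes was -0.16 in DESeq2 without the block and -0.12 in both limma fits on log2(FPKM + 1), and that of the 31 genes -0.13 in both; the immunoproteasome median was 1.31 without both libraries numbered 3.

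Leaving out each library in turn gave medians from -0.26 to -0.04 for the 50 genes, -0.27 to -0.04 for the 31 and -0.79 to 2.79 for the immunoproteasome. For single genes the log2 fold changes ran from -0.79 to 3.02 (Psmb8), -1.21 to 2.79 (Psmb9), -0.55 to 0.98 (Psmb10), -0.27 to 0.02 (Psmb5), -0.37 to 0.29 (Psme1), -0.37 to 0.37 (Psme2), -0.98 to 1.17 (Psme2b), -0.16 to 0.09 (Psme3), -0.16 to 0.13 (Psme4), -0.32 to 0.06 (Psmg1), -0.37 to 0.09 (Psmg3), -0.15 to 0.29 (Psma8), -0.28 to 0.05 (Psmc6), -0.43 to 0.01 (Psmd7) and -0.22 to 0.12 (Psmd12). They kept their sign but ran from -0.29 to -0.04 (Psma2), -0.33 to -0.05 (Psmb3), -0.33 to -0.05 (Psmb7), -0.33 to -0.04 (Psmc2), -0.55 to -0.07 (Psmg2) and -0.61 to -0.06 (Psmc3ip), in each case weakest without CDs 3 and strongest without untreated 3. Of the 26 members named, Psmc3ip among them, 24 changed sign or moved by over 1.5 times with 1 library left out, all but Psmb6 and Psmd8. Among pathway genes they ran from -0.02 to 0.28 (Nfe2l1), -0.09 to 0.62 (Pdia3), -0.18 to 0.61 (Erap1), -0.10 to 0.76 (Stat3) and -0.17 to 1.89 (Ifngr2). Differences of mean log2 ratio ran from -0.18 to 2.31 for Psmb9 over Psmb6 and -0.38 to 1.07 for Psmb10 over Psmb7. Psme2 and Psme4 turned to 0.00 in both FPKM fits, and to 0.04 and 0.02 without both libraries numbered 3. Of 656 values for the 41 genes named, 43 changed sign, 37 of them with 1 library left out, and 5 were called only under an alternative. For the catalytic ratios, the exact permutation test over pairs gave p = 0.25 each, the only value it can give when all 3 pairs share a sign. It uses the same differences between the group means and was chosen after seeing the data. It therefore cannot show whether these differences hold. The cause of the changes of sign was not tested. Fits with 1 library left out had no block.

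The spread between numbers limited the test without the block, whose biological coefficient of variation was 0.485, against 0.112 with the block. Depth limited Psma8, Psmb11 and Nfkb1, which had few counts.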
